A study of Arabidopsis thaliana with 31 samples.

Results

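The 6 Arabidopsis genes described here are GAPA (AT3G26650), GAPA-2 (AT1G12900), GAPB (AT1G42970), CP12-1 (AT2G47400), CP12-2 (AT3G62410) and PRK (AT1G32060). They were chosen by name for their place in the Calvin cycle, and every poly(A)-seq read whose gene name was one of them was taken. This gave 11869 of the 2786281 reads in the library, on 6 of 19829 named genes. All 6 genes had reads. Of the 31 samples of the series, 1 was used, a poly(A)-seq library of Col, the wild type, made from whole 2-week-old seedlings. No genotype or condition was compared and no value has a replicate error, so the differences below are between genes of 1 library and carry no test. Intervals cover counting error only and take each read as independent, so they are too narrow if repeated reads come from the same molecule. In poly(A)-seq total RNA is partially digested with RNase T1 and an RNA adaptor is joined to the tail where it stops, and the deposited reads hold the transcript part with the tail removed. Each read therefore marks where a transcript ends and its tail begins, and a read count is not divided by transcript length. Only reads that reached the 3′ adaptor were kept, so a fragment was counted only if its transcript part and tail fitted in the read. Read counts and mapped lengths can thus depend on tail length and on where the read began, and a count is not a direct measure of transcript amount. The size of this effect was not tested.

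In the chloroplast, the photosynthetic glyceraldehyde-3-phosphate dehydrogenase carries out the reductive step of the Calvin cycle with NADPH. GAPA and GAPA-2 encode its A subunit and GAPB its B subunit, which has a C-terminal extension that resembles part of CP12. PRK, phosphoribulokinase, makes ribulose bisphosphate, the acceptor of carbon dioxide. CP12 is a small, largely disordered protein that holds the dehydrogenase and PRK together in an inactive complex in the dark, and reduced thioredoxin releases both enzymes in the light.

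The reference sequence at the most used 3′ end of each gene is shown because the reads differ mainly in how sharply they stop there. Each run of 30 nt is taken from the RefSeq TAIR10.1 assembly on the strand of the gene, and the capital marks the last base left in the read, with 19 nt before it and 10 nt after it. The most used ends of both CP12 genes are followed by aa in the genome, that of GAPA-2 by aaa and those of GAPA, GAPB and PRK by a single a.
GAPA, chr3:9796970-9796999, plus strand: aactattcaaacttgtttaCattttgtgtt
GAPA-2, chr1:4392498-4392527, minus strand: tatagtaataaacttgattCaaacatatta
GAPB, chr1:16129662-16129691, plus strand: tatgcatacttgtttttctCataagatttt
CP12-1, chr2:19447399-19447428, plus strand: atacacaacatatgtttcaTaatgtgtttg
CP12-2, chr3:23091545-23091574, plus strand: tacaaaagccaaaatttcaTaacaggtaat
PRK, chr1:11534596-11534625, plus strand: gcaataacagttcagtttaTagaacgcctt

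All 6 genes were among the more often read genes of the library. GAPA had 3307 reads, GAPA-2 2065, PRK 1757, GAPB 1713, CP12-2 1558 and CP12-1 1469, against a median of 20 reads over the 19829 named genes (quartiles, 6 and 63). The genes ranked between 98 (GAPA) and 247 (CP12-1) by read number, and together they held 0.426% of the reads (95% Clopper-Pearson interval, 0.418 to 0.434%). In whole seedlings, fewer cells that express a gene and less RNA per cell cannot be told apart. The library held reads of green tissue (LHB1B2, CAB2 and PSAG, between 32888 and 39789 reads by name) and of root (PYK10 with 2556 reads by name, TIP2;3 with 85 and PIP2;4 with 41), whereas the 4 seed genes examined had 1 read in all and the 2 pollen or flower genes had 0. Assigned by position, LHB1B2 had 71146 reads and PYK10 4406.

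The A-subunit genes led the order. GAPA had 1.60 times the reads of GAPA-2 (counting interval of the ratio, 1.52 to 1.69), and together they had 5372 reads, 3.14 times the 1713 reads of GAPB (2.97 to 3.31). GAPA-2 had 1.18 times the reads of PRK (1.10 to 1.25). The ratio of PRK to GAPB was 1.03 (0.959 to 1.10). GAPB had 1.10 times the reads of CP12-2 (1.03 to 1.18). The ratio of CP12-2 to CP12-1 was 1.06 (0.987 to 1.14), and the 3027 reads of both CP12 genes were 1.72 times those of PRK (1.62 to 1.83).

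Most of these reads repeated one another, and this changed the order. Between 76.8% (PRK) and 87.8% (GAPA-2 and CP12-2) of a gene's sense reads shared genomic start and end with a read already counted, against a median of 82.8% in the other 357 genes with at least 1000 sense reads. Counted once, GAPA had 590 distinct reads, PRK 408, GAPB 386, GAPA-2 251, CP12-1 209 and CP12-2 189. GAPA then had 2.35 times the reads of GAPA-2, PRK stood above GAPA-2, and CP12-1 stood above CP12-2. The GAPA and GAPA-2 pair was 2.18 times GAPB, and the CP12 pair was 0.975 times PRK. Reads without molecular identifiers can repeat because a molecule was amplified or because different molecules had the same ends, which these data do not separate.

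**Figure D1:**
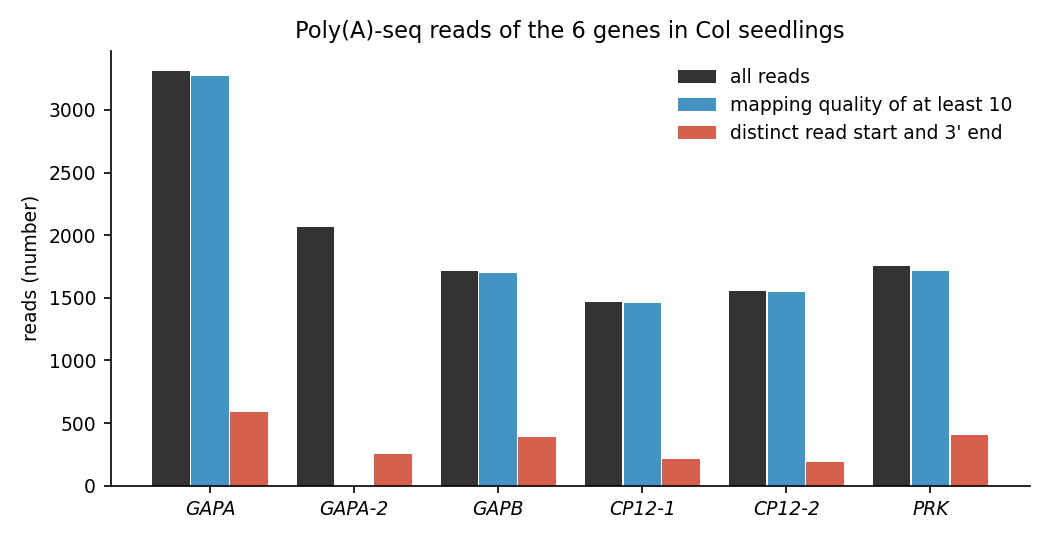
Number of poly(A)-seq reads of each gene in Col, with all reads in black, those that score 10 or more in mapping quality in blue and distinct combinations of read start and 3′ end in red. GAPA leads with 3307 reads, GAPA-2 has no read at the mapping quality minimum, and the distinct reads run between 189 (CP12-2) and 590 (GAPA).

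Mapping quality, a score of Bowtie2 that ran from 0 to 42 here, set GAPA-2 apart. Of its 2065 reads 0 reached a score of 10, and 99.95% had a score of 0 or 1. In the other 5 genes between 97.6% (PRK) and 99.2% (CP12-1) of the reads reached it. The share with a score of 0 or 1 was 42.9% over the whole library. The reference sequences under all 2065 GAPA-2 reads occurred once in the genome, as did those under 3294 of the 3307 GAPA reads and under all reads of GAPB, CP12-1, CP12-2 and PRK. The sequences of the reads themselves, which could hold mismatches, were not examined. GAPA-2 has 5 annotated transcripts, while each of the other genes has 1. In coding sequence GAPA and GAPA-2 were 85.8% identical over 1188 aligned bases. In the 3′-UTR, where all sense reads of both genes ended, they were 64.2% identical over 179 aligned bases. By the same measure the 3′-UTRs of GAPA and GAPB were 68.3% identical, those of GAPA-2 and GAPB 63.1% and those of CP12-1 and CP12-2 63.3%. The 3′-UTRs of the A-subunit pair were thus no more alike than those of GAPA and GAPB.

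The reads of GAPA-2 divided among its transcripts according to where those transcripts end. AT1G12900.2 and AT1G12900.3 stop at position 4392486 of chromosome 1, and AT1G12900.1 and AT1G12900.5 run on to 4392450 and 4392438. For the 1539 reads with a 3′ end inside all 4 of these transcripts, AT1G12900.1 was named for 366, AT1G12900.2 for 387, AT1G12900.3 for 421 and AT1G12900.5 for 365. For the 526 reads that ended farther on, AT1G12900.1 was named for 266 and AT1G12900.5 for 260. AT1G12900.4 was named for 0 reads. The transcript named in a GAPA-2 read thus followed the position of the 3′ end, and near-equal parts fell to the transcripts that held it.

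Few reads of the 6 genes were listed antisense or were shared with neighbours. Of the 11869 reads, 12 were antisense to the gene they name, and all of them stopped within a gene of the opposite strand. CP12-2 had 9 such reads, in BZIP53 (AT3G62420), GAPA had 2, in LBD24 (AT3G26660), and PRK had 1, in NSI (AT1G32070). Conversely, 33 reads named antisense on NSI had their 3′ end in PRK, which brought PRK to 1789 reads by position. These 12 reads are left out of what follows, which describes 11857 sense reads.

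Every one of the 11857 reads ended in a 3′-UTR. None ended in coding sequence, which allows a share of up to 0.0253%. The median 3′ end lay 125 nt after the stop codon in GAPB, 126 nt in GAPA-2, 139 nt in GAPA, 155 nt in CP12-1, 163 nt in CP12-2 and 209 nt in PRK. In the other 9288 genes with at least 20 sense reads the median was 183 nt (quartiles, 141 and 235 nt). The 3 dehydrogenase genes thus fell below this lower quartile, CP12-1 and CP12-2 lay between it and the median, and PRK lay above the median. In the other 357 genes with at least 1000 sense reads the lower quartile was 138 nt, and GAPA was not below it. With distinct reads counted once the median was 137 nt in GAPA-2 and 139 nt in GAPB and GAPA.

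**Figure D2:**
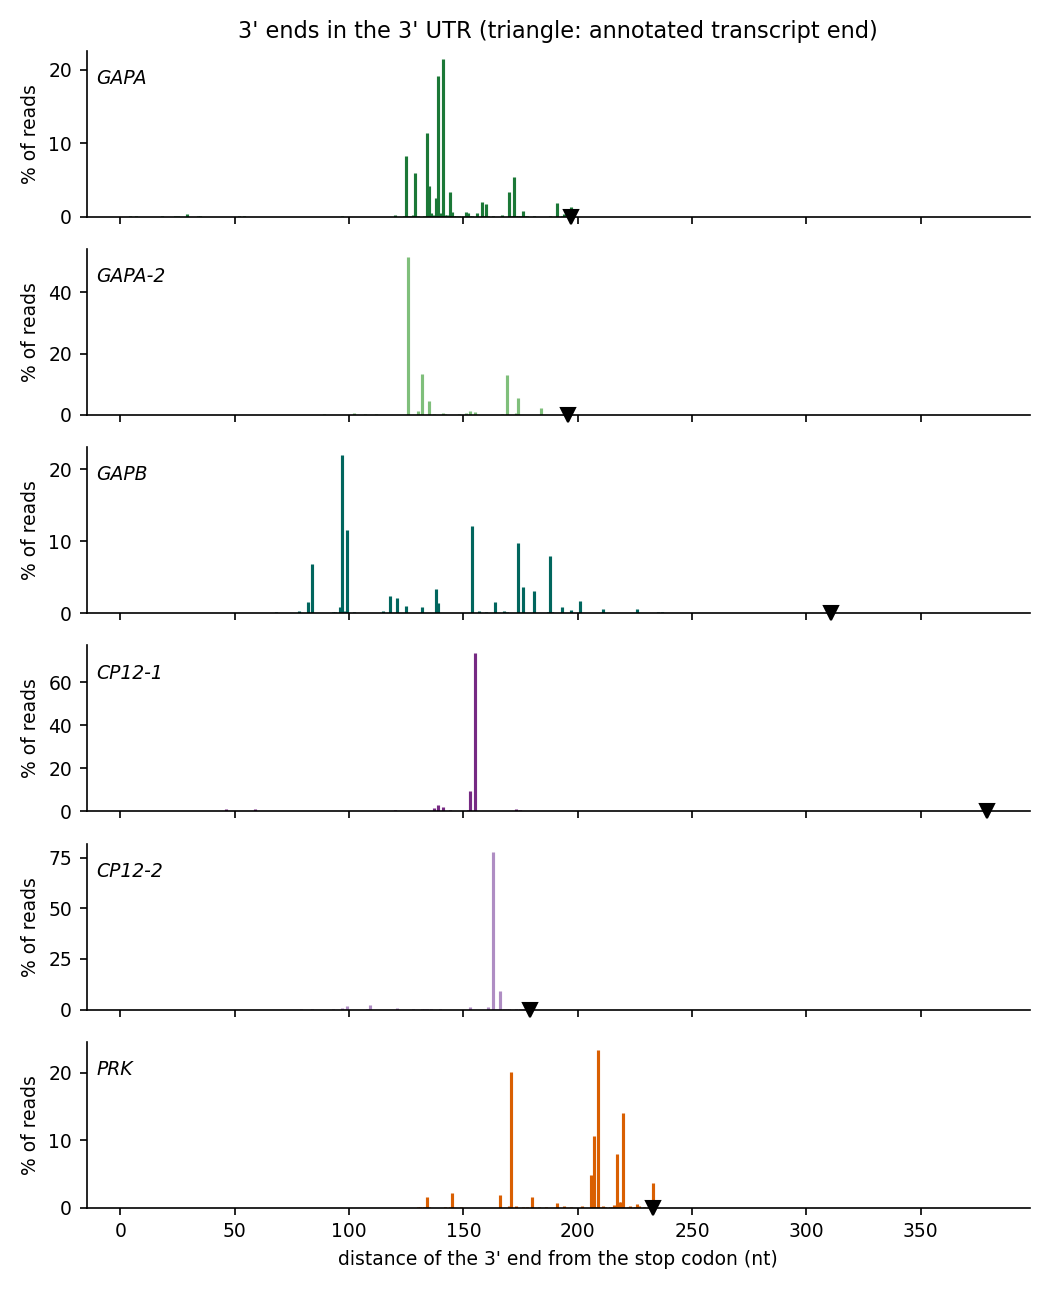
Share of each gene's sense reads (y axis, %, scaled per gene) by the distance of the 3′ end from the stop codon (x axis, nt). Triangles mark the annotated end of the longest transcript, and CP12-1 and CP12-2 show a single dominant line of 73.5% and 78.1%, whereas GAPB spreads over several lines between 84 and 188 nt.

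The CP12 genes ended most sharply. In CP12-2, 1209 of 1549 reads ended at position 23091564 of chromosome 3, 163 nt after the stop codon (78.1%; 95% Clopper-Pearson interval, 75.9 to 80.1%). A further 143 ended 3 nt downstream. In CP12-1, 1080 of 1469 reads ended at position 19447418 of chromosome 2, 155 nt after the stop codon (73.5%; 71.2 to 75.8%), and 138 ended 2 nt upstream. These shares were higher than in 95.8% and 94.4% of the other 357 genes with at least 1000 reads. The nt between the 10th and the 90th percentile of the 3′ ends numbered 5 in CP12-2 and 14 in CP12-1, against a median of 54 in those 357 genes. The ends were less sharp with distinct reads counted once. The same base then held 33.3% in CP12-2 and 27.8% in CP12-1, although it was still the most used base in both. The spread was then 68 and 112 nt. Counted so, a base holds no more reads than it has distinct starts, here 63 in CP12-2 and 58 in CP12-1. The share also fell in the other members, to between 10.3% (GAPA) and 18.3% (GAPA-2). Distinct reads were not counted in this way for the other 357 genes.

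CP12-1 had a second group of ends close to the stop codon. Of its reads, 50 (3.40%) ended between 21 and 71 nt after the stop codon, in 26 distinct reads, apart from the main group at 99 to 221 nt. GAPA had 28 reads (0.847%) between 4 and 54 nt, in 16 distinct reads. In CP12-2 all reads formed 1 site at this joining of 24 nt, and only with 10 nt did 94 reads (6.07%), in 44 of 189 distinct reads (23.3%), form a group of their own between 79 and 109 nt. The annotated 3′-UTR of CP12-1 is 379 nt long, so that its most used base lay 224 nt before the annotated end, while that of CP12-2 lay 16 nt before it.

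Over all reads the ends of GAPB spread over 92 nt between the 10th and the 90th percentile, the widest of the 6 genes, and they fell into separate groups. With distinct reads counted once the spread was 104 nt in GAPB, below the 112 nt of CP12-1. Its most used base, position 16129681 of chromosome 1 at 97 nt after the stop codon, held 376 of 1713 reads (21.9%; 20.01 to 23.99%), and 199 reads ended 2 nt farther on. A further 208 reads ended at 154 nt, 166 at 174 nt, 136 at 188 nt and 118 at 84 nt. When 3′ ends within 10 nt of the next were joined into a site, 956 reads (55.8%) fell between 59 and 139 nt and 742 (43.3%) between 152 and 211 nt. The main site of GAPB so defined was smaller than in all but 3.36% of the other 357 genes with at least 1000 reads, in which the median was 97.1%. Among all 9288 other genes with at least 20 reads, 34.9% had a smaller main site, with a median of 66.8%, so the low standing of GAPB holds against genes of like depth only, a set chosen after the values were seen. With distinct reads counted once, the groups held 200 and 178 reads. When 3′ ends within 24 nt were joined, as was done for the main values, both groups formed 1 site of 179 nt with 1712 reads, so the width of joining decides whether GAPB has 1 site or several. The annotated 3′-UTR of GAPB is 311 nt long and its reads ended by 237 nt.

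The sequence at the second of these ends is shown because it differs from the first: the last base is G, which was the last base in 25.4% of GAPB reads, and in PRK and GAPA-2 further ends likewise lie apart from the first. The capitals mark the last base of the read.
GAPB at 154 nt, chr1:16129719-16129748, plus strand: gactgagagaattgtatttGagaaataacc
PRK at 171 nt, chr1:11534558-11534587, plus strand: aaagaaaaagcctgtaatgTagagaagtga
PRK at 220 nt, chr1:11534607-11534636, plus strand: tcagtttatagaacgccttCaaaatttgtt
GAPA-2 at 169 nt, chr1:4392455-4392484, minus strand: atacacaactctggtttggGaatgcatttg

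PRK used several ends near the end of its annotated transcript. Of 1756 reads, 411 ended at position 11534615 of chromosome 1, 209 nt after the stop codon (23.4%; 21.4 to 25.5%). A further 353 (20.1%) ended at 171 nt, 247 (14.1%) at 220 nt and 186 (10.6%) at 207 nt. The last annotated base, at 233 nt, was the 3′ end of 64 reads. The reads were aligned to transcripts, so an end beyond that base could not be recorded in a read named on PRK. In GAPA 45 reads also stopped at the last base of its transcript, against 0 in GAPB and CP12-1 and 1 in CP12-2. In GAPA-2, 46 reads stopped at the end of AT1G12900.1, 5 at the shared end of AT1G12900.2 and AT1G12900.3, and 2 at the end of AT1G12900.5.

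GAPA and GAPA-2 encode the same subunit but ended differently. In GAPA, 710 of 3305 reads ended at position 9796989 of chromosome 3, 141 nt after the stop codon (21.5%; 20.1 to 22.9%), 631 (19.1%) ended 2 nt before it and 375 (11.3%) at 134 nt. In GAPA-2, 1064 of 2065 reads ended at position 4392508 of chromosome 1, 126 nt after the stop codon (51.5%; 49.3 to 53.7%), 274 (13.3%) at 132 nt and 271 (13.1%) at 169 nt. Within 5 nt of the most used base lay 48.8% of GAPA reads and 53.2% of GAPA-2 reads. The 10th to 90th percentiles spanned 43 nt in both genes. The most used base was therefore used more in GAPA-2, while the spread of the ends was alike. With distinct reads counted once the most used base held 10.3% in GAPA and 18.3% in GAPA-2.

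**Figure D3:**
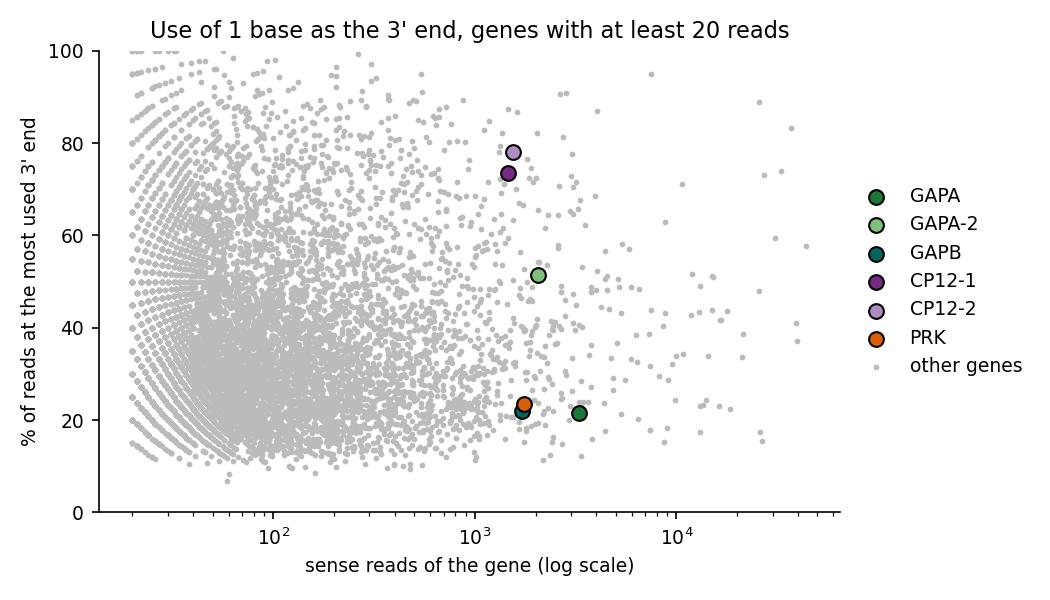
Share of sense reads at the most used 3′ end (y axis, %) against the number of sense reads (x axis, log scale) for the 6 genes (large coloured points) and the other 9288 genes with at least 20 sense reads (grey). CP12-2 (78.1%) and CP12-1 (73.5%) lie high, GAPA-2 (51.5%) lies between, and PRK (23.4%), GAPB (21.9%) and GAPA (21.5%) lie low.

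Sequence elements known from plant 3′-ends were searched on the strand of the gene before the most used 3′ end. AATAAA, the hexamer of the canonical poly(A) signal, was found in the 50 nt that end at this base in GAPA and GAPA-2 and in none of the other 4 genes, and in 13.3% of the 9288 other genes. It ended 28 nt before the most used base in GAPA and 8 nt before it in GAPA-2. TGTA, which is the UGUA of the RNA, was found in the last 100 nt of all 6 genes, and in 69.8% of the other genes. A match does not show that a site is used. The hexamer is in capitals in these runs.
GAPA, chr3:9796952-9796981, plus strand: ttgtAATAAAtaatcataaactattcaaac
GAPA-2, chr1:4392508-4392537, minus strand: ctctataatttatagtAATAAActtgattc

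The 3′-UTRs of GAPA and GAPA-2 also share a run of 14 identical bases, TGTATAATTGTAGT, which holds TGTA at 2 places. It ended 97 nt after the stop codon and 44 nt before the most used base in GAPA, and 72 nt after the stop codon and 54 nt before the most used base in GAPA-2. None of the 9288 other genes had this run in the 100 nt before its most used base. The longest run shared by the 3′-UTRs of CP12-1 and CP12-2 was 8 nt, and the same length was found for GAPB with either A-subunit gene. The run was looked for after the sequences had been seen, and it is in capitals in the lines that follow.
GAPA, chr3:9796924-9796953, plus strand: gtgaagacTGTATAATTGTAGTatggattt
GAPA-2, chr1:4392554-4392583, minus strand: attcggaaTGTATAATTGTAGTtcctgagt

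Over all reads the last base was mostly T in CP12-2 (82.8%), CP12-1 (80.2%), PRK (70.05%) and GAPA (67.3%). It was mostly C in GAPA-2 (61.5%), and in GAPB it was T in 40.5%, C in 33.3% and G in 25.4%. With distinct reads counted once, T was the last base in 53.4% of CP12-2 reads and 50.7% of CP12-1 reads, with C in 37.8% of the CP12-1 reads, and GAPA-2 had C in 41.0% and T in 37.1%, so that C was no longer the last base of most GAPA-2 reads. An A was the last base in 0.817 to 1.12% of the reads of each gene. The A's at the end of a read were removed as tail, so few reads could keep an A there, and T, C and G share the rest. The genome continued with A in 97.2% of CP12-2 reads, 96.9% of GAPA-2, 95.6% of CP12-1, 93.5% of GAPB, 78.4% of PRK and 73.4% of GAPA. Where the genome continues with A, the place of cleavage is known only to within that run, since removal of the tail takes those bases too. The run was 0.869 nt long on average in GAPA and 2.20 nt in GAPA-2, the shortest and the longest of the 6.

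Because the study counted guanosines within tails, the genome after each 3′ end was searched for 5 or more A's followed by a G, which could be read as a tail with a G. Of the 11857 reads, 1 was followed by such a sequence, a PRK read. An A-rich stretch, with a run of 6 A's or 7 or more among the next 10 nt, followed 46 reads of GAPA-2 (2.23%), 40 of PRK (2.28%), 16 of GAPB (0.934%), 1 each of CP12-1 and CP12-2 and 0 of GAPA. The 46 GAPA-2 reads are those that stopped at position 4392450, the end of AT1G12900.1, with 20 distinct starts. With distinct reads counted once the share was 7.97% in GAPA-2, 3.19% in PRK and 2.33% in GAPB. Under a stricter rule, 8 A's in a row or 9 of 10, it was 0 in GAPA-2 and GAPB and 0.0569% in PRK. The tails themselves were not analysed here.

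The transcript part of the reads was short in CP12-1 and GAPA-2. The median mapped length was 21 nt in CP12-1 and 31 nt in GAPA-2, against 53 nt in PRK, 62 nt in CP12-2 and 63 nt in GAPA and GAPB. The median over the other 357 genes with at least 1000 reads was 59 nt, and 0 of them had a lower median than CP12-1, while 1.68% had a lower one than GAPA-2. In CP12-1 61.2% of the reads were 25 nt or shorter, in GAPA-2 27.4%, in GAPB 14.1% and in the other 3 genes 3.00 to 8.49%. With distinct reads counted once the medians were 45 nt in CP12-1 and 46 nt in GAPA-2.

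These short reads came from few fragments. A single fragment of 20 nt made up 568 of the 1469 CP12-1 reads (38.7%), and a single fragment of 25 nt made up 418 of the 2065 GAPA-2 reads (20.2%). Their reference sequences are shown because they carry so many of the reads, and the CP12-1 fragment stops at the most used base shown above, as the GAPA-2 fragment does in its gene.
CP12-1, chr2:19447399-19447418, plus strand: atacacaacatatgtttcat
GAPA-2, chr1:4392508-4392532, minus strand: taatttatagtaataaacttgattc
The most frequent fragment held 15.9% of the reads in CP12-2 (62 nt long), 8.43% in PRK (45 nt), 4.26% in GAPB (95 nt) and 3.96% in GAPA (71 nt).

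In CP12-1 the common start of reads lay close to the shortest length that was aligned. According to the methods, trimmed reads had to be at least 18 nt long, and 18 nt was the shortest mapped length in each of the 6 genes. Of the CP12-1 reads, 668 (45.5%) began at position 19447399, and they ran between 18 and 40 nt. A 3′ end more than 2 nt upstream of the most used base could not be seen from that start. Reads of exactly 18 nt made up 7.69% in CP12-1, 3.33% in GAPB and 0.323 to 1.06% in the other 4 genes. In CP12-2 the most used start lay 62 nt from the most used end and 3.03% of the reads were 25 nt or shorter. The part of the 18 nt limit in the sharp 3′ end of CP12-1 was not tested.

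**Figure D4:**
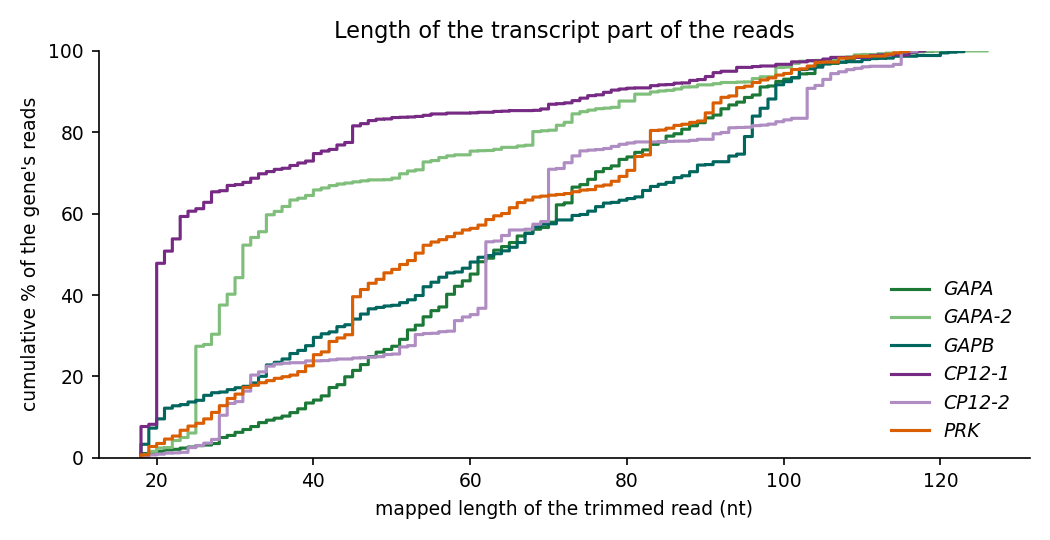
Cumulative share of each gene's sense reads (y axis, %) by mapped length of the trimmed read (x axis, nt). CP12-1 and GAPA-2 rise early, at 20 and 25 nt, and have medians of 21 and 31 nt, while the other 4 genes have medians between 53 and 63 nt.

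The starts of the reads were uneven as well. RNase T1 cuts single-stranded RNA after G, and the base just before the mapped start was G in 8.10% of CP12-1 reads, 9.30% of GAPA-2, 15.0% of GAPA, 15.4% of GAPB, 17.1% of PRK and 28.9% of CP12-2. Over distinct starts the order changed, with G in 13.0% for GAPA, 13.1% for GAPB, 13.95% for GAPA-2, 21.0% for CP12-2, 23.8% for PRK and 28.3% for CP12-1. The authors removed 3 random bases from the start of each read. The fourth base before the mapped start, which precedes these 3 if they had come from the transcript, was T in 62.5% of the reads in PRK, 66.1% in GAPB, 71.6% in GAPA, 77.5% in CP12-2, 80.5% in CP12-1 and 87.9% in GAPA-2. Over the distinct starts of each gene, T was found there in 36.6% (PRK) to 61.6% (GAPA-2). G was found at this place in 3.68% (CP12-2) to 23.5% (GAPB) of the reads. T was thus more frequent than G at this place in all 6 genes, over reads and over distinct starts (G, 6.98 to 24.8% of the distinct starts). The base composition of these 3′-UTRs was not set beside these shares. The authors made the cDNA with a ScriptSeq kit after the digestion, and whether a read start is an RNase T1 cut was not tested.

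Set beside other genes of the cycle, the 6 genes lay in the middle of a wide range. The 18 other Calvin cycle genes examined had between 36 and 44235 reads with a median of 1413.5, and 8 of them had more reads than GAPA-2 while 9 had fewer than CP12-1. The highest were RBCS1A and RBCS3B, which encode the small subunit of Rubisco, with 44235 and 25688 reads, and RCA, Rubisco activase, with 13022. FBA2 and FBA1, aldolases, had 6520 and 3773 reads, and PGK1, phosphoglycerate kinase, had 5333. SBPASE, sedoheptulose bisphosphatase, had 726 reads and RPE, ribulose phosphate epimerase, had 595. The members spanned 2.25-fold between the lowest and the highest.

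**Figure D5:**
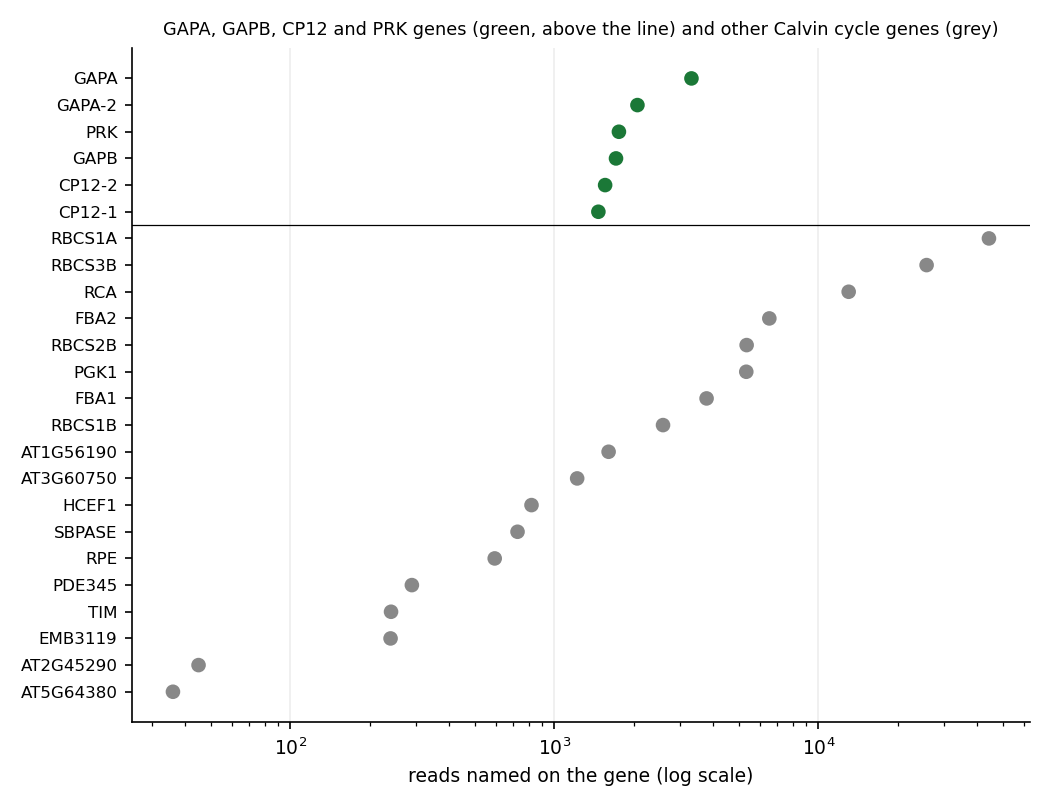
Reads named on each gene (x axis, log scale) for the 6 genes (green, above the line) and 18 other Calvin cycle genes (grey, below the line). The 6 genes lie between 1469 and 3307 reads, within the range of 36 (AT5G64380) to 44235 (RBCS1A) of the other genes.

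Of the 6 relatives examined, GAPC1 alone had more reads than the lowest member. CP12-3 (AT1G76560), the third CP12 gene, had 40 reads, against 1469 and 1558 for CP12-1 and CP12-2. GAPCP-1 and GAPCP-2, which encode plastid dehydrogenases of glycolysis, had 233 and 20 reads. GAPC1 and GAPC2, the cytosolic enzymes of glycolysis, had 1704 and 1424, beside 1713 for GAPB. ALDH11A3 (AT2G24270), the non-phosphorylating dehydrogenase, had 937.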

How the data were processed

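Poly(A)-seq was analysed from 1 library of Col. From reads of the first end that reached the 3′ adaptor, the authors took off 3 random bases, the adaptor and the tail (which had to begin with 5 A's), and aligned reads of at least 18 nt with Bowtie2, with at most 2 mismatches. TAIR10 is named as the target, although the deposited alignments give positions within transcripts. The deposited mapping quality is a Bowtie2 score. The methods state no removal of duplicates for poly(A)-seq.

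Reads were taken by the gene name, put on TAIR10.1 through the exons of the named transcript (2753404 of 2786281 reads, all reads of the 6 genes among them), and assigned by position within the gene or 300 nt downstream as an alternative. The last base of a sense read was taken as its 3′ end. Ends within 24 nt of the next were joined into sites. Shares have 95% Clopper-Pearson intervals, and intervals of ratios come from the same method. Counting limits for 0 use 3 reads. Coding sequences were aligned globally with Biopython 1.88. Placement was tested on simulated data, with 2000 of 2000 reads put back. These reads were drawn from the same transcript models, so a difference from the models used by the authors was not tested. Scripts ran in Python 3.11.15 with pandas 2.3.3, scipy 1.17.1, numpy 2.4.6 and matplotlib 3.10.9. All 6 genes are named, and other genes come from lists of related genes or from neighbours with shared reads. The members and lists were chosen with earlier results of these data known. The set of genes with at least 1000 reads, the motifs and the shared run were chosen after the values were seen. No gene with a similar pattern is named, since 1 library gives no pattern across samples.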

Additional observations from a re-analysis of the deposited data

How the results depend on the processing

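Counting reads once moved the most values. Of 200 alternative values over 93 results, 101 fell inside the counting error of the main value (for counts and spreads, inside a factor of 1.5), 96 moved and 3 turned from a main ratio whose interval excluded 1. The CP12-2 to CP12-1 ratio, whose interval held 1, also crossed 1 under 2 alternatives, given next, and is counted among those that moved. With identical alignments counted once, the 6 genes had 2269 reads in place of 11869, GAPA to GAPA-2 was 1.24 in place of 1.60, CP12-2 to CP12-1 was 0.933 in place of 1.06, the CP12 pair to PRK turned to 0.988 in place of 1.72, and the median share of reads at the main site was 99.7% in place of 99.9%. With sense reads of identical genomic start and end counted once, chosen after seeing the data, the 6 genes had 2033 reads, GAPA to GAPA-2 was 2.35, CP12-2 to CP12-1 was 0.904, GAPA-2 to PRK turned to 0.615 in place of 1.18, and the CP12 pair to PRK turned to 0.975. Identical GAPA-2 reads were named on up to 4 transcripts, which is why both ways of counting differ for that gene. Joining 3′ ends within 10 nt gave a median main site of 95.4%. At a mapping quality of 10 or more GAPA-2 had 0 reads, so its ratios and shares could not be computed, and no other value computed at that setting moved. Sense reads alone, or genes assigned by position, moved no count or ratio of the 6 genes.

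No paired analysis was possible because the data are a single library without groups. Depth limits the comparison of genes with near-equal counts, and 189 to 590 distinct reads lay behind each gene.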

Other observations

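The thioredoxin system, which reduces CP12 and both enzymes in the light, was represented by 8 genes, all with reads (179 to 2684; median, 733.5). TRX-M4 had 2684 reads, THM1 2315 and ATHM2 2017, which encode m-type thioredoxins, and these were the 3 genes of the list above the lowest member, CP12-1, with 1469. TRXF1 and TRXF2, f-type thioredoxins, had 353 and 498 reads. FTRA1 and FTRA2, variable subunits of ferredoxin-thioredoxin reductase, had 227 and 179. The most used base held 24.1% of the reads in TRXF2, 26.98% in TRXF1, 39.7% in TRX-M4, 42.7% in FTRA1, 53.9% in AT2G04700, 64.4% in THM1, 72.4% in ATHM2 and 87.7% in FTRA2. These values were not tested against other genes.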
